A study of Mus musculus with 2 samples.

Results

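The S phase genes described here are 41 genes of DNA replication and its supply, chosen by symbol from a list of cell cycle markers and matched by name to the deposited matrices, where all 41 were found among 32285 genes. The data were droplet-based single-cell RNA profiles of live spleen cells from C57BL/6 mice with chronic anaemia, counted as unique molecular identifiers (UMIs, 1 per captured RNA molecule). Anaemia was induced by injection of PHZ, an abbreviation that stands for the haemolytic drug phenylhydrazine in this field and is not spelled out in the labels, or by bleeding, in each case every 3 days for 1 month. There was 1 library for chronic PHZ and 1 for chronic bleeding, no untreated library was analysed here, and the number of mice in each library was not stated. Treatment, mouse and library therefore cannot be told apart, and every ratio of PHZ over bleeding is a comparison of these libraries with a 95% interval for counting error only.

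S phase is the part of the cell cycle in which the genome is copied once. Before it, the MCM2-7 helicase is loaded on origins, and at its start the helicase is fired, polymerases with their clamp copy the strands, and the cell makes deoxynucleotides and histones for the new DNA. In the erythroid lineage, precursors divide several times while they begin to fill with haemoglobin, then leave the cycle, condense the nucleus and lose it, and in stress erythropoiesis of the mouse much of this takes place in the spleen.

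Many S phase genes are known targets of E2F transcription factors, so their promoters are shown first. RefSeq promoters (build GRCm38.p6, 250 bases before to 50 after the gene start) were found for 31 of the 41 genes. Capitals mark E2F-type letters (TTCCCGC or TTCGCGC or TTGGCGC or TTGCCGC) and CCAAT, the letters read by the factor NF-Y, each on either strand. The 4 with E2F-type letters and the 2 without are those of the genes with the most UMIs. Rrm2, the small subunit of ribonucleotide reductase, at chr12:24708004-24708303 on the plus strand, had 1 E2F-type match. Pola1, the catalytic subunit of polymerase alpha, at chrX:93632106-93632405 on the minus strand, had 4. Rrm1, the large subunit of the reductase, at chr7:102441445-102441744 on the plus strand, had 1. Mcm6, a helicase subunit, at chr1:128359656-128359955 on the minus strand, had 5, and each of its runs TTGGCGCGAA holds 2 overlapping matches. Pcna, the sliding clamp, at chr2:132253131-132253430, and Slbp, the histone mRNA binding protein, at chr5:33652525-33652824, both on the minus strand, had CCAAT letters and no E2F-type match in this window.
Rrm2: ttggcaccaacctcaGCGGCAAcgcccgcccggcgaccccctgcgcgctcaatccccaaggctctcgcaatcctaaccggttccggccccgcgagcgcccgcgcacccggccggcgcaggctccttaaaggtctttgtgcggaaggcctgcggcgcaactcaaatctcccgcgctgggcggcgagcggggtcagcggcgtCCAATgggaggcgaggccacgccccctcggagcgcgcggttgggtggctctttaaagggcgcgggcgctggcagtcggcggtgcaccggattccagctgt
Pola1: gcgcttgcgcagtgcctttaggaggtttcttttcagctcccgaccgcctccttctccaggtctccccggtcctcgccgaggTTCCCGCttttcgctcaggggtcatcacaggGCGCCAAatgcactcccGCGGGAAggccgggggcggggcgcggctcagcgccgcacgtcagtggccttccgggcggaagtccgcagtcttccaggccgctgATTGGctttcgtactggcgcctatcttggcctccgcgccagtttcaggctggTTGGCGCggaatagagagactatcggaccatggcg
Rrm1: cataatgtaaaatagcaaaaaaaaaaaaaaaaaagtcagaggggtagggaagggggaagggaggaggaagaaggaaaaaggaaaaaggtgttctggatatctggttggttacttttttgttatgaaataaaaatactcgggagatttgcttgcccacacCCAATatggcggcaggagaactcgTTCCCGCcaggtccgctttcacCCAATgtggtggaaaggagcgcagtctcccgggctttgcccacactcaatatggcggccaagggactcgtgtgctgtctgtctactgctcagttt
Mcm6: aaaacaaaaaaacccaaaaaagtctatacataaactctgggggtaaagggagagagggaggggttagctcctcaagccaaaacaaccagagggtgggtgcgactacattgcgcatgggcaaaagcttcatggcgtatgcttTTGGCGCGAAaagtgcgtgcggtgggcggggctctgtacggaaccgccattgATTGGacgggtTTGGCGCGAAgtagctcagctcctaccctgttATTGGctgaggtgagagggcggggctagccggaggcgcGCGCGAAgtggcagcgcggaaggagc
Pcna: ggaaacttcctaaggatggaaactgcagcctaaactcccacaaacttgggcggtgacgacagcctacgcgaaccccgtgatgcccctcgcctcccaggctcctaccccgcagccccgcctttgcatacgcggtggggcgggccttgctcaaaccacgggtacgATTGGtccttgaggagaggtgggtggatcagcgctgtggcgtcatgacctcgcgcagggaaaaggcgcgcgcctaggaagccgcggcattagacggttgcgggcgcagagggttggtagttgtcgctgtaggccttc
Slbp: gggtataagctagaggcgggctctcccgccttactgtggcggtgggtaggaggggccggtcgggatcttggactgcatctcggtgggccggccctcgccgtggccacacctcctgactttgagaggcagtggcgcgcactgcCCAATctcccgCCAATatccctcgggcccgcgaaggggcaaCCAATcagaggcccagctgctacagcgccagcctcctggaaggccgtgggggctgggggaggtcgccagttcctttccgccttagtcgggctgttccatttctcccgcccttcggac

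Some genes have more than 1 promoter in the table, and a gene was counted when any of its promoters held the letters. Of the 31 genes, 23 (74.2%) had E2F-type letters, against 10.9% of the 27025 genes in the RefSeq table. CCAAT letters were found for 23 (74.2%) against 41.1% of all genes, and both kinds for 18 (58.1%) against 4.26%. The CHR letters TTTGAA, known from genes of G2 and M phase, were found for 6 (19.4%) against 20.2%. Over single promoters of the same length, 9.57% of all 32851 held E2F-type letters, 37.4% CCAAT and 17.9% CHR letters. A match describes the letters only. Factor binding was not measured.

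The PHZ matrix held 128130213 UMIs and the bleeding matrix 145260780, and 6113 and 8953 barcodes were kept as cells, with medians of 12242 and 8045 UMIs. The 41 genes had 172781 UMIs in PHZ cells and 107249 in bleeding cells. Clusters were named from cell type markers, and each class name below stands for cells like that type. Erythroid cells (3037 PHZ and 2271 bleeding) were staged by the share of their UMIs from haemoglobin genes. In the cells under 20%, 33 erythroid markers summed to 11450 CPM (defined next) in PHZ and 10021 CPM in bleeding. There 12 markers of stem or early progenitor cells summed to 472 and 648 CPM, with UMIs for 9 and 12 of them. As clusters were named from markers, these sums are no separate check of the names. Levels are UMIs summed over the cells of a stage or class and scaled to 1000000 UMIs outside the haemoglobin genes (CPM). In such sums, fewer cycling cells and less RNA per cell cannot be told apart. The libraries shared 15 cell barcodes, and within 2 points of the limits at 20%, 50% and 80% there were 34, 53 and 115 PHZ cells and 8, 26 and 79 bleeding cells.

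S phase RNA was highest in erythroid cells with up to 50% haemoglobin and lower past that, in both libraries. The summed level of the 41 genes was 7794 CPM in PHZ cells and 7377 CPM in bleeding cells under 20% haemoglobin (241 and 117 cells). From 20 to 50% it was 8718 CPM in PHZ and 8460 CPM in bleeding (233 and 97 cells). From 50 to 80% it was 2031 CPM in PHZ and 2121 CPM in bleeding (890 and 387 cells). Past 80%, cells with 500 or more genes had 433 CPM in PHZ and 272 CPM in bleeding. Those with 300 to 499 genes had 456 and 313 CPM. The order of the stages under 80% was the same in both libraries, and the fall between the stage of 20 to 50% and that of 50 to 80% was to 0.233 of the earlier level in PHZ (0.228 to 0.238) and 0.251 in bleeding (0.241 to 0.261).

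Narrower steps of haemoglobin, chosen after the data were seen, placed the highest level from 20 to 30% in PHZ and from 10 to 20% in bleeding. PHZ cells reached 10303 CPM from 10 to 20% and 10871 CPM from 20 to 30%, and bleeding cells 11002 and 9027 CPM in the same steps. From 50 to 60% the level was still 4548 CPM in PHZ and 5595 CPM in bleeding, and from 60 to 70% it was 1148 and 1088 CPM. Genes of G2 and M phase, which follow S phase, were highest later, from 50 to 60%, with 45861 CPM in PHZ and 52196 CPM in bleeding. Inhibitors of the cell cycle were also highest in that step, at 2761 CPM in PHZ and 3469 CPM in bleeding. The step of 5 to 10% had 9380 CPM of S phase RNA in PHZ and 9457 CPM in bleeding, where it held 15 cells.

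**Figure D1:**
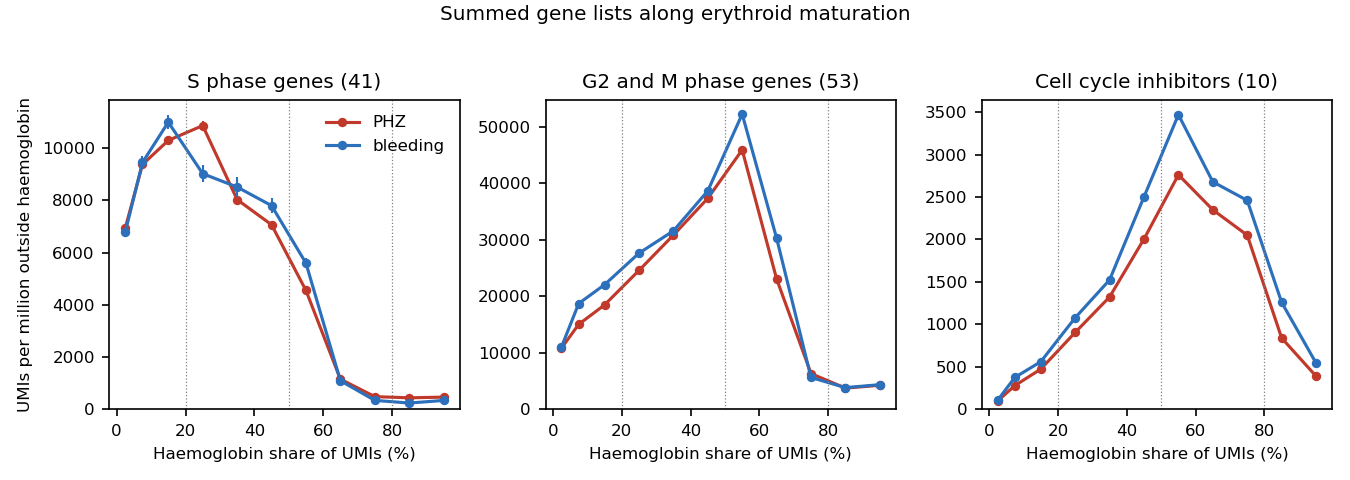
Summed level (CPM) of the S phase genes, the genes of G2 and M phase and the cell cycle inhibitors in 11 steps of haemoglobin share (percent of UMIs), PHZ in red and bleeding in blue, with 95% Poisson intervals on the S phase points and dotted lines at the stage limits. The S phase genes are highest between 10 and 30% haemoglobin and the other lists from 50 to 60%.

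Per cell, the fall was steeper, and later cells also held fewer UMIs outside haemoglobin. The mean number of S phase UMIs per cell was 444.5 in PHZ and 405.4 in bleeding under 20%, then 117.7 and 78.7 from 20 to 50%, and 10.9 and 9.88 from 50 to 80%. Mean UMIs outside haemoglobin were 57026 in PHZ and 54958 in bleeding in the first of these stages and 5357 and 4655 in the last. With every cell thinned to 1000 UMIs outside haemoglobin, 85.6% of PHZ cells (80.5 to 89.9%, exact binomial) and 83.6% of bleeding cells (75.6 to 89.8%) under 20% had at least 3 S phase UMIs. From 20 to 50% the thinned shares were 74.1% of PHZ (67.9 to 79.7%) and 60.4% of bleeding cells (49.6 to 70.5%), and from 50 to 80% 14.8% (12.5 to 17.3%) and 12.9% (9.74 to 16.7%). Unthinned, these shares were 89.2% and 89.7%, 86.3% and 69.1%, and 40.6% and 32.3%, PHZ before bleeding at each stage. Neutrophils, which no longer divide, gave a thinned share of 0.862% in PHZ and of 0 of 94 cells in bleeding (exact binomial limit 3.85%, or 3.19% by a limit of 3 counts), at median depths of 7132 and 4610 UMIs. Cells under 1000 such UMIs, left out of the thinned shares, numbered 4 and 1, 5 and 6, and 2 and 0 in these stages.

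**Figure D2:**
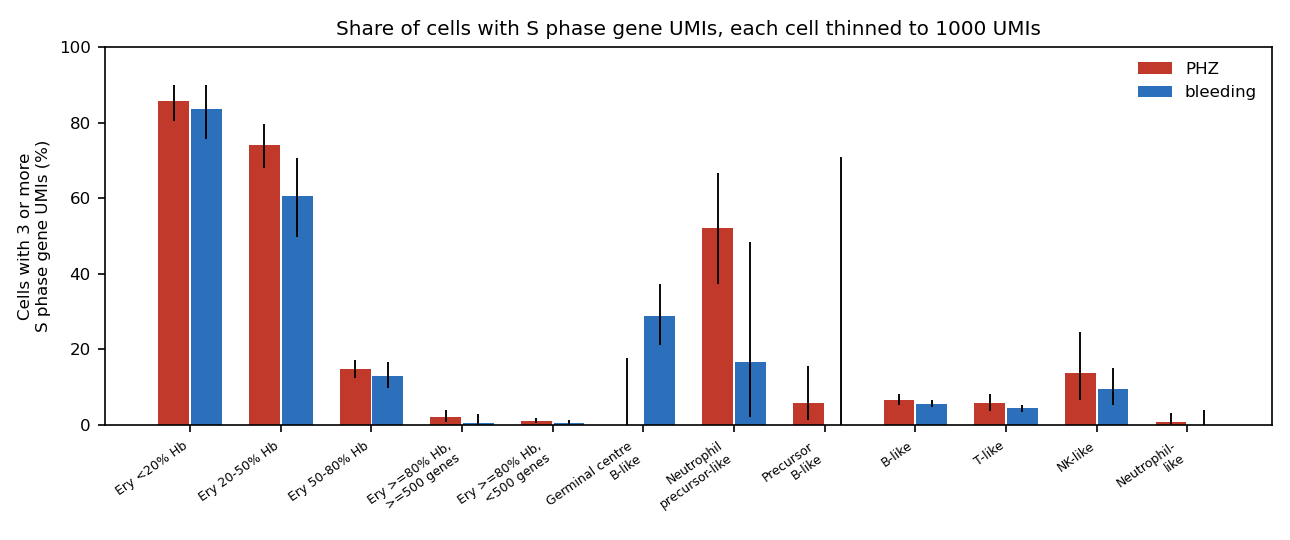
Share of cells (percent) with at least 3 S phase UMIs after each was thinned to 1000 UMIs outside haemoglobin, by erythroid stage and cell class, PHZ in red and bleeding in blue, with exact binomial 95% intervals as lines. The share is 85.6% in PHZ and 83.6% in bleeding in erythroid cells under 20% haemoglobin, and 1.97% and 0.5% past 80% in cells with 500 or more genes.

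Of the 6 MCM helicase subunits, Mcm3, Mcm4, Mcm5 and Mcm6 were highest under 20% in both libraries, and Mcm2 and Mcm7 from 20 to 50%. The summed level of the 6 was 1453 CPM in PHZ and 1481 CPM in bleeding under 20%, then 1196 and 1141 CPM from 20 to 50%, and 123 and 156 CPM from 50 to 80%. Mcm6 had 292 CPM in PHZ and 295 CPM in bleeding under 20%, 239 and 187 CPM from 20 to 50%, and 22.9 and 21.6 CPM from 50 to 80%. Mcm3 and Mcm7, the next in UMIs, had 294 and 253 CPM in PHZ and 301 and 282 CPM in bleeding in the first stage. Mcm3 was at 194 CPM in PHZ and 188 CPM in bleeding in the middle stage, where Mcm7 was at 257 and 284 CPM. Mcm2 had 189 CPM in PHZ and 179 CPM in bleeding in the first stage and 194 and 195 CPM in the middle one. Genes of origin licensing and firing summed to 488 CPM in PHZ and 477 CPM in bleeding, then 488 and 558 CPM, then 119 and 135 CPM. Gmnn, which keeps origins from being licensed again, made up most of that sum, at 254 CPM in PHZ and 260 CPM in bleeding in the first stage. Cdc6, which loads the helicase, was the only one of the 41 whose highest stage differed between the libraries.

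Among the genes that supply deoxynucleotides, Rrm2 and Tyms were among the 5 of the list lost last. Rrm1, Rrm2 and Tyms (thymidylate synthase) together had 935 CPM in PHZ and 841 CPM in bleeding under 20%, 1830 and 1790 CPM from 20 to 50%, and 661 and 583 CPM from 50 to 80%. Their part of all S phase UMIs in PHZ was 12.0%, 21.0% and 32.6% in these stages. Rrm2 led, at 411 CPM in PHZ and 338 CPM in bleeding, then 1084 and 1043 CPM, then 422 and 356 CPM. Rrm1 was at 330 CPM in PHZ and 322 CPM in bleeding, then 382 and 357 CPM, then 110 and 88.8 CPM. Tyms was at 193 CPM in PHZ and 181 CPM in bleeding, then 364 and 389 CPM, then 129 and 139 CPM.

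Polymerase, primase, clamp and Okazaki fragment genes stayed level over the first stages, at 1469 CPM in PHZ and 1403 CPM in bleeding, then 1585 and 1581 CPM, and were at 270 and 352 CPM from 50 to 80%. Pcna, the gene of the list with the most UMIs in cells, had 603 CPM in PHZ and 527 CPM in bleeding, then 726 and 741 CPM, then 85.2 and 117 CPM. Pola1 had 321 CPM in each library, then 361 CPM in PHZ and 346 CPM in bleeding, then 64.2 and 79.9 CPM. Fen1, the nuclease that trims Okazaki fragments, had 153 CPM in PHZ and 160 CPM in bleeding, then 177 and 184 CPM, then 59.8 and 72.7 CPM, and was among the last to fall. Dscc1, of a complex that loads the clamp, was among the first, at 43.4 CPM in PHZ and 41.7 CPM in bleeding, then 30.5 and 29.9 CPM, then 1.05 and 1.11 CPM.

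Chromatin and histone supply genes split. Slbp, needed for histone mRNA, had 406 CPM in PHZ and 361 CPM in bleeding under 20%, 682 and 629 CPM from 20 to 50%, and 152 and 148 CPM from 50 to 80%. Nasp, a chaperone of histones H3 and H4, took the other course, with 477 CPM in PHZ and 472 CPM in bleeding, then 183 and 153 CPM, then 14.3 and 19.4 CPM. Hells, a chromatin remodeller, had 160 CPM in PHZ and 144 CPM in bleeding, then 34.6 and 38.8 CPM, then 3.98 and 3.88 CPM. Atad2, a bromodomain ATPase, was closer to Slbp, at 288 CPM in PHZ and 240 CPM in bleeding, then 399 and 376 CPM, then 82.2 and 105 CPM. Histone genes themselves (66, a list added after the data were seen) had 6496 CPM in PHZ and 5851 CPM in bleeding, then 22568 and 24299 CPM, then 14500 and 16239 CPM, so their highest stage was that of Slbp. This protocol primes at poly(A) tails, which most histone mRNAs of S phase lack.

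Fork protection and repair genes summed to 1277 CPM in PHZ and 1183 CPM in bleeding, then 1426 and 1323 CPM, then 416 and 411 CPM. Blm, a helicase of recombination repair, had 178 CPM in PHZ and 158 CPM in bleeding, then 364 and 296 CPM, then 144 and 113 CPM. Tipin, of the fork protection complex, had 347 CPM in PHZ and 329 CPM in bleeding, then 286 and 300 CPM, then 64.4 and 69.9 CPM. Usp1, a deubiquitinase whose substrates include PCNA, had 210 CPM in PHZ and 204 CPM in bleeding, then 204 and 182 CPM, then 69.2 and 76.6 CPM. Ung, which removes uracil from DNA, and Exo1, an exonuclease of mismatch repair, were low and early. Ung had 29.2 CPM in PHZ and 27.4 CPM in bleeding, then 6.67 and 3.33 CPM, then 1.05 and 0.555 CPM. Exo1 had 48.1 CPM in PHZ and 49.3 CPM in bleeding, then 16.5 and 18.9 CPM, then 3.77 and 1.11 CPM.

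Among the transcription, cyclin and ubiquitin ligase genes, E2f8, a repressor of the E2F family, and Cdca7, a partner of Hells, took opposite courses. E2f8 had 120 CPM in PHZ and 94.6 CPM in bleeding, then 293 and 300 CPM, then 91.9 and 87.1 CPM. Cdca7 had 88.3 CPM in PHZ and 105 CPM in bleeding, then 15.9 and 13.3 CPM, then 1.89 and 1.11 CPM. In the narrower steps Cdca7 was at 99.8 CPM in PHZ and 118 CPM in bleeding up to 5% haemoglobin and at 28.3 and 16.9 CPM from 20 to 30%. Rrm2 did the reverse, at 305 CPM in PHZ and 271 CPM in bleeding up to 5%, and 883 and 880 CPM still from 50 to 60%. Pcna, by contrast, was at 191 CPM in PHZ and 356 CPM in bleeding from 50 to 60%.

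**Figure D3:**
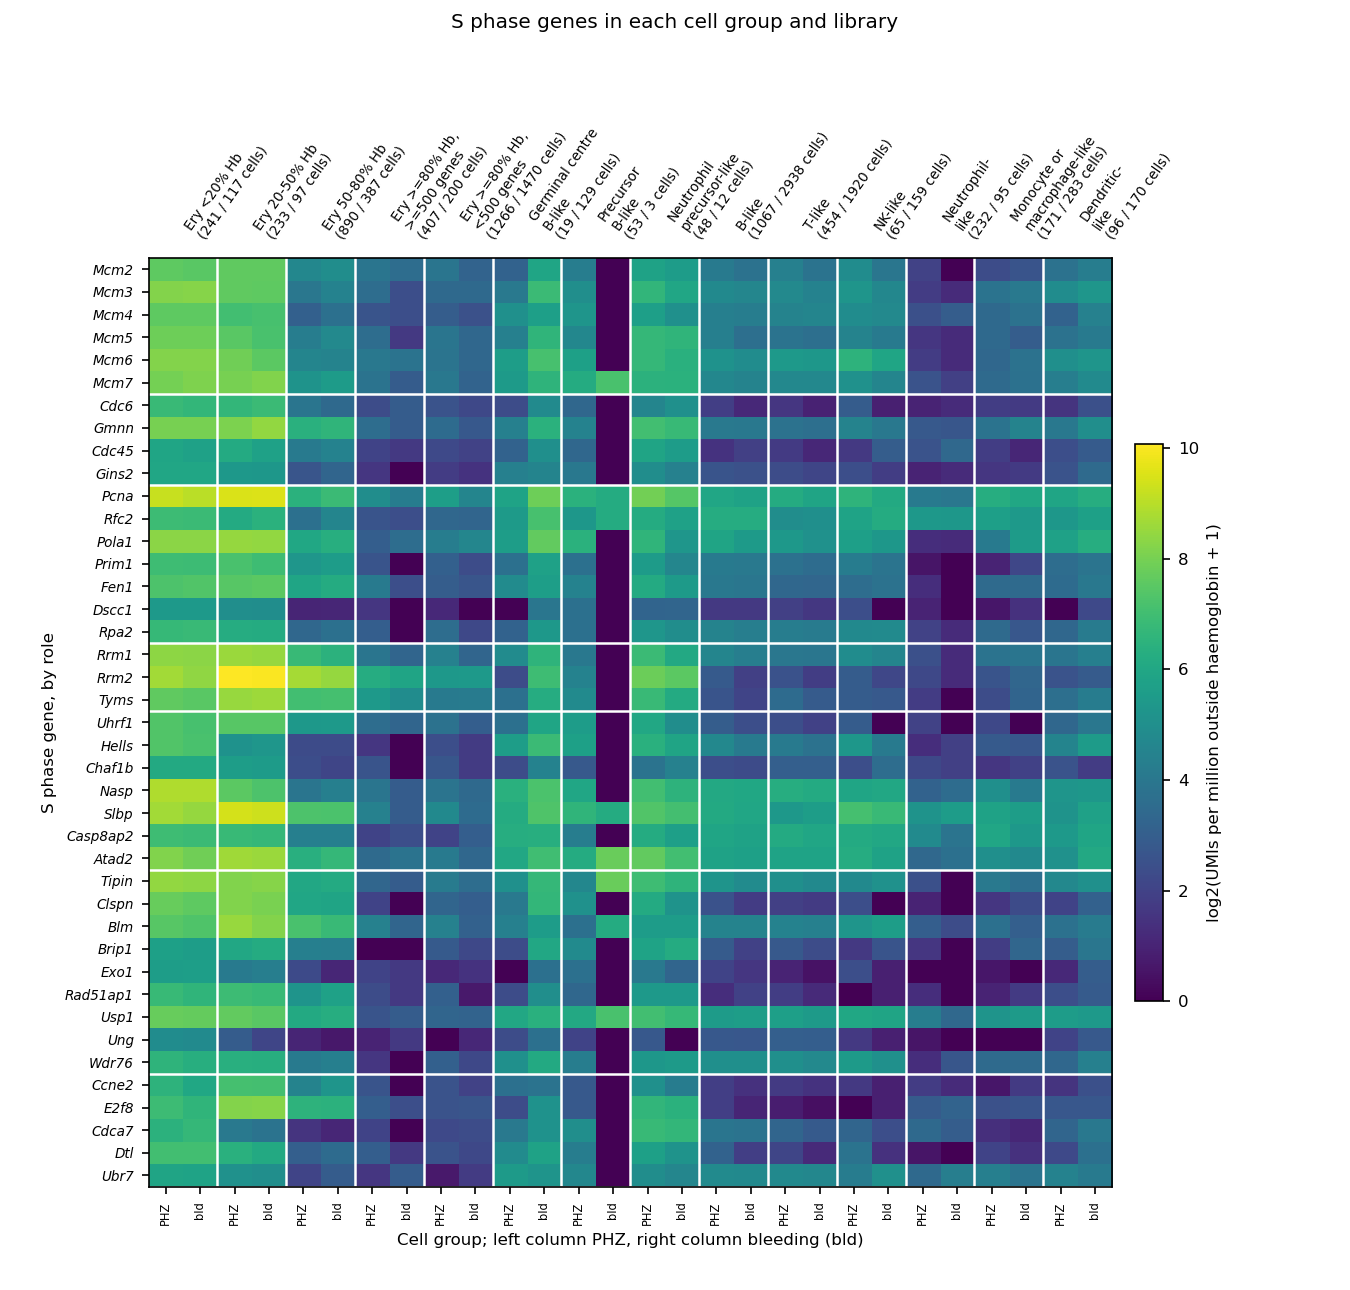
Level of each S phase gene (rows, grouped by role, colour as log2 of CPM plus 1) in each erythroid stage and cell class, PHZ left and bleeding right in each pair, with the numbers of cells above. Over the erythroid stages all 41 genes are highest under 20% or from 20 to 50% haemoglobin, and precursor B cells in bleeding are only 3.

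Within each library, a gene was called between stages when it differed at least 2-fold with an interval that did not hold 1. From under 20% to 20 to 50%, 5 S phase genes fell in each library and they were the same 5, Cdca7, Ung, Hells, Exo1 and Nasp. Of all genes measured, 37.5% fell in PHZ and 36.3% in bleeding, against 5 of 41 here. In the same step 3 genes rose in PHZ (Rrm2, Blm and E2f8) and 4 rose in bleeding (Tyms, Rrm2, Ccne2 and E2f8), beside 12.2% and 14.5% of all genes. The median log2 ratio of the 41 was −0.04 in PHZ and 0.01 in bleeding, and that of all genes −0.56 and −0.57. With all UMIs as the denominator, haemoglobin included, 14 fell in PHZ and 16 in bleeding. That denominator lowers every gene outside haemoglobin in the later stage. The share of all genes with it is not given here, so these counts cannot be set beside the shares above.

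From 20 to 50% to 50 to 80%, every S phase gene that could be measured (at least 50 UMIs in both stages together) fell, 40 of 40 in PHZ and 34 of 34 in bleeding. None rose. Of all genes, 39.7% fell and 10.2% rose in PHZ, and 29.6% fell and 10.7% rose in bleeding. The median log2 ratio was −2.50 in PHZ and −2.09 in bleeding, against −0.74 and −0.55 over all genes. From under 20% straight to 50 to 80%, 37 of 41 fell in PHZ and 35 of 41 in bleeding, beside 60.0% and 59.2% of all genes, and none rose, beside 14.2% and 14.6%. From 50 to 80% to the late cells with 500 or more genes, 24 of the 31 measured fell in PHZ and 20 of 20 in bleeding, beside 59.8% and 51.6% of all genes, and none rose, beside 4.09% and 5.33%.

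Ordered by the loss between under 20% and 50 to 80% in both libraries summed, the first genes were Cdca7 (log2 ratio −5.81), Dscc1 (−5.33), Hells (−5.29), Ung (−4.97) and Nasp (−4.92). The last were Rrm2 (0.06), E2f8 (−0.30), Blm (−0.34), Tyms (−0.52) and Fen1 (−1.29). Over the stages, 20 genes were highest under 20% in both libraries and 20 were highest from 20 to 50% in both. E2F-type letters were found for 10 of the 13 genes with promoters among those highest under 20% and for 12 of the 17 among those highest from 20 to 50%, CCAAT for 8 and 15, and CHR letters for 2 and 4.

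**Figure D4:**
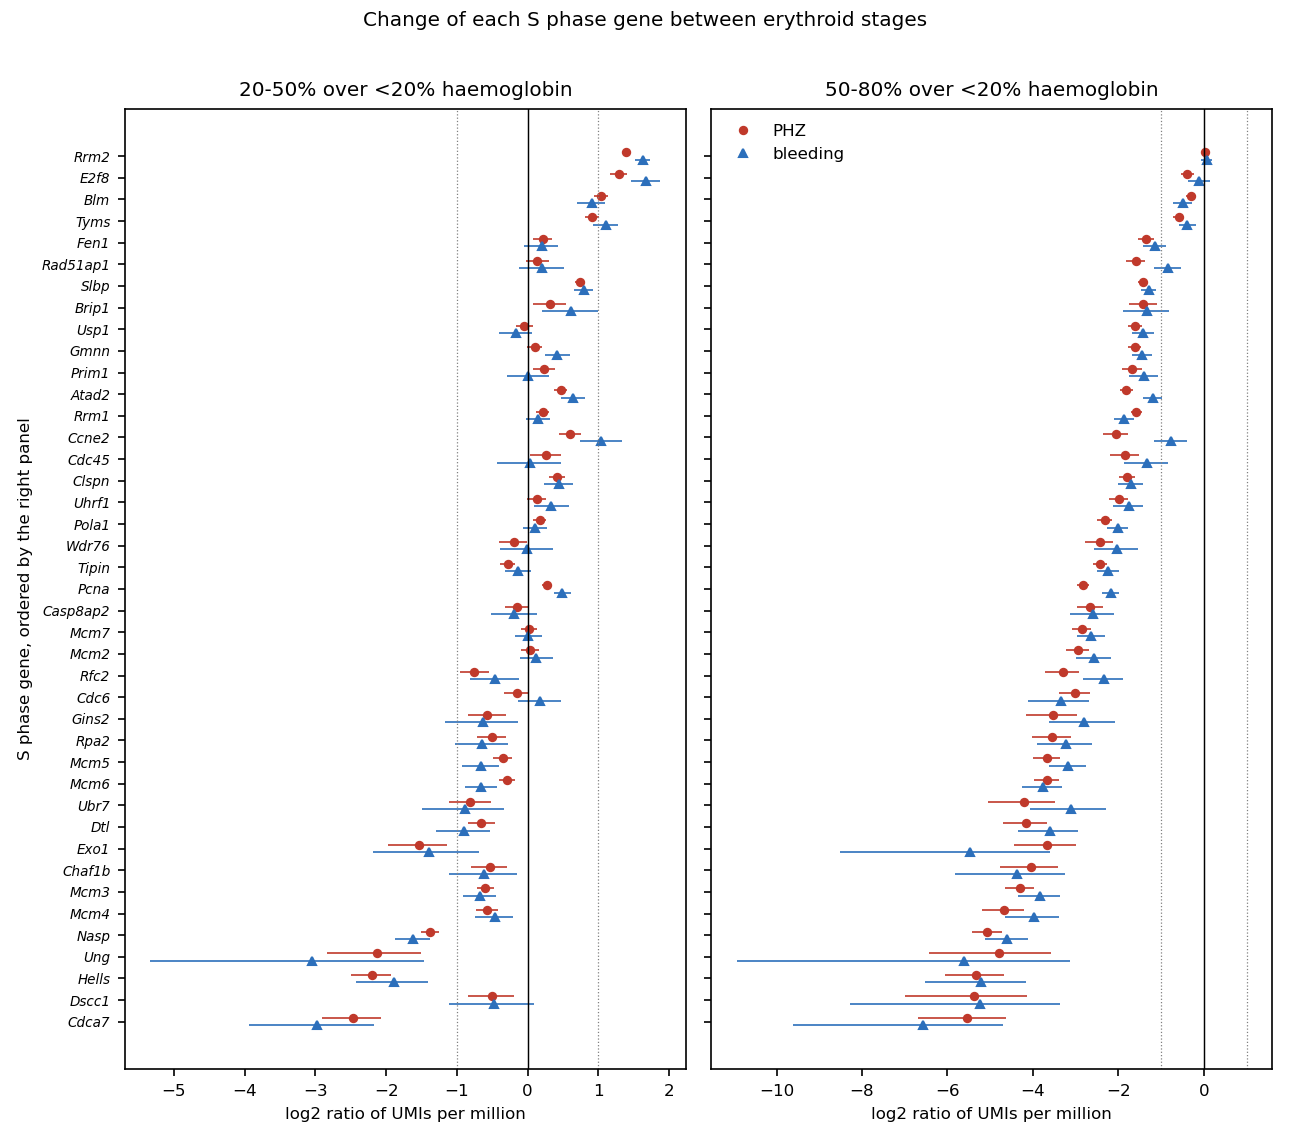
Log2 ratio of each S phase gene from 20 to 50% over under 20% haemoglobin (left) and from 50 to 80% over under 20% (right), PHZ as red circles and bleeding as blue triangles, with counting intervals of 95% and dotted lines at 2-fold. Genes are ordered by the right panel, where Rrm2 (0.06 with both libraries summed) is lost last and Cdca7 (−5.81) first.

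Other cell cycle lists, used beside the 41 genes, moved at different times. Of 29 other DNA replication genes, 5 fell and 2 rose in PHZ and 4 fell and 2 rose in bleeding from under 20% to 20 to 50%. Of all genes measured in that step, 37.5% fell and 12.2% rose in PHZ, and 36.3% fell and 14.5% rose in bleeding. The most abundant were Lig1, the ligase that joins Okazaki fragments (260 CPM in PHZ and 244 CPM in bleeding, then 329 and 330 CPM, then 38.8 and 43.9 CPM), Orc6 of the origin recognition complex (262 and 232, then 287 and 266, then 66.1 and 64.9 CPM), Dnmt1, the maintenance DNA methyltransferase (192 and 193, then 218 and 238, then 67.3 and 74.9 CPM), and Rfc4 of the clamp loader (217 and 204, then 159 and 134, then 12.4 and 14.4 CPM), PHZ before bleeding in each pair.

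Nucleotide supply genes outside the 41 went early. In each library 9 of 12 fell from under 20% to 20 to 50%, beside 37.5% of all genes in PHZ and 36.3% in bleeding. The median log2 ratio of the list was −1.99 in PHZ and −2.07 in bleeding. Dut, which breaks down dUTP, had 845 CPM in PHZ and 883 CPM in bleeding, then 235 and 258 CPM, then 17.8 and 27.8 CPM. Impdh2, of guanine nucleotide synthesis, had 269 CPM in PHZ and 273 CPM in bleeding in the first stage and 47.0 and 66.5 CPM in the next. Mthfd1, of folate metabolism, had 192 CPM in PHZ and 217 CPM in bleeding in the first stage and 18.1 and 17.7 CPM in the next. Tk1, thymidine kinase, ran with Rrm2 and Tyms instead, at 159 CPM in PHZ and 155 CPM in bleeding, then 256 and 340 CPM, then 110 and 138 CPM.

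Regulators of G1 and S fell at near the share of all genes in the same step. In PHZ 7 of 20 measured fell and 4 rose, beside 37.5% and 12.2% of all genes. In bleeding 6 of 20 fell and 6 rose, beside 36.3% and 14.5%. E2f2, an activating E2F, had 139 CPM in PHZ and 105 CPM in bleeding, then 755 and 819 CPM, then 1108 and 1037 CPM. It was thus highest in the stage where the summed S phase level had already fallen. Rb1, the retinoblastoma protein that holds E2F factors back, had 213 CPM in PHZ and 186 CPM in bleeding, then 709 and 755 CPM, then 399 and 460 CPM. Ccna2, cyclin A2, had 211 CPM in PHZ and 201 CPM in bleeding, then 486 and 517 CPM, then 372 and 400 CPM. Ccnd3, cyclin D3, had 228 CPM in PHZ and 208 CPM in bleeding, then 340 and 438 CPM, then 94.8 and 102 CPM.

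Inhibitors of the cycle rose from under 20% to 20 to 50% in 6 of 7 measured genes in PHZ and 5 of 5 in bleeding. Of all genes, 12.2% rose in PHZ and 14.5% in bleeding. The inhibitors summed to 175 CPM in PHZ and 167 CPM in bleeding, then 1426 and 1698 CPM, then 2382 and 2826 CPM. Cdkn2d, an inhibitor of CDK4 and CDK6, led with 25.5 CPM in PHZ and 22.7 CPM in bleeding, then 637 and 750 CPM, then 812 and 998 CPM. Btg2, an antiproliferative gene, had 67.5 CPM in PHZ and 52.3 CPM in bleeding, then 451 and 559 CPM, then 708 and 892 CPM. Cdkn1b, the gene of p27, had 16.95 CPM in PHZ and 17.9 CPM in bleeding, then 73.4 and 121 CPM, then 589 and 631 CPM. Cdkn2c, another inhibitor of CDK4 and CDK6, had 46.1 CPM in PHZ and 49.5 CPM in bleeding, then 201 and 200 CPM, then 151 and 166 CPM. Of 53 genes of G2 and M phase, 37 rose in PHZ and 36 in bleeding in the same step, beside 12.2% and 14.5% of all genes. None fell in either library, beside 37.5% and 36.3%. The sum of the 53 was 12490 CPM in PHZ and 12599 CPM in bleeding, then 30934 and 32511 CPM, then 24835 and 27039 CPM. The most abundant were Hmgb2, Mki67, Ube2c and Tubb4b. Mki67, the usual marker of proliferation, had 1109 CPM in PHZ and 971 CPM in bleeding, then 4218 and 3892 CPM, then 3166 and 3070 CPM.

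Between the libraries, the erythroid stages under 80% held S phase RNA at nearly the same level when summed over a stage. In the narrower steps the difference went in both directions. The summed ratio of PHZ over bleeding was 1.06 under 20% (1.04 to 1.07), 1.03 from 20 to 50% (1.005 to 1.057) and 0.957 from 50 to 80% (0.922 to 0.994). Up to 5% haemoglobin PHZ cells had 6944 CPM and bleeding cells 6788 CPM. From 5 to 10% they had 9380 and 9457 CPM, and from 10 to 20% 10303 and 11002 CPM. Of the cells under 20%, 128 of 241 in PHZ and 79 of 117 in bleeding lay in the step up to 5%. From 50 to 60% PHZ had 4548 CPM and bleeding 5595 CPM, and from 70 to 80% 477 and 334 CPM. The part of this mix of cells in the stage ratios was not tested. The ratio from 20 to 50% turned below 1 under 4 of the other settings, between 0.881 and 0.996, and that from 50 to 80% turned above 1 under 4, between 1.03 and 1.29. A gene was called between libraries when the ratio was at least 1.5-fold and its interval did not hold 1. Under 20%, 0 of 41 S phase genes were higher and 0 lower in PHZ, beside 1.69% and 4.30% of all measured genes, and ratios ran from 0.840 for Cdca7 to 1.41 for Ccne2. The median log2 ratio of the 41 was 0.05 there, against −0.03 over all genes.

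From 20 to 50%, 0 of 40 were higher and 0 lower, beside 4.04% and 4.62% of all genes, with ratios from 0.785 for Gmnn to 1.30 for Cdc45. From 50 to 80%, 0 of 33 were higher and 2 lower, beside 5.08% and 4.67% of all genes, and the median log2 ratio was −0.28 against −0.02 over all genes. The 2 were Rfc2, of the clamp loader, with 12.2 CPM in PHZ and 23.3 CPM in bleeding (ratio 0.522), and Ccne2, cyclin E2, with 21.6 CPM in PHZ and 37.7 CPM in bleeding (0.572). A share of 2 in 33 is near the background. With no doublets removed 8 of 35 were higher, and the share over all genes in that setting is not given here. Among the other lists, genes called in the stages of 20 to 80% were few. From 20 to 50% Orc2 was higher in PHZ (ratio 1.501) and Timeless lower (0.640), and of the inhibitors Cdkn1a was higher, with 37.5 CPM in PHZ and 1.11 CPM in bleeding, and Cdkn1b (0.607) and Btg1 (0.401) were lower. From 50 to 80% Rpa3 (0.645), Dut (0.642) and Rbl2 (0.649) were lower.

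**Figure D5:**
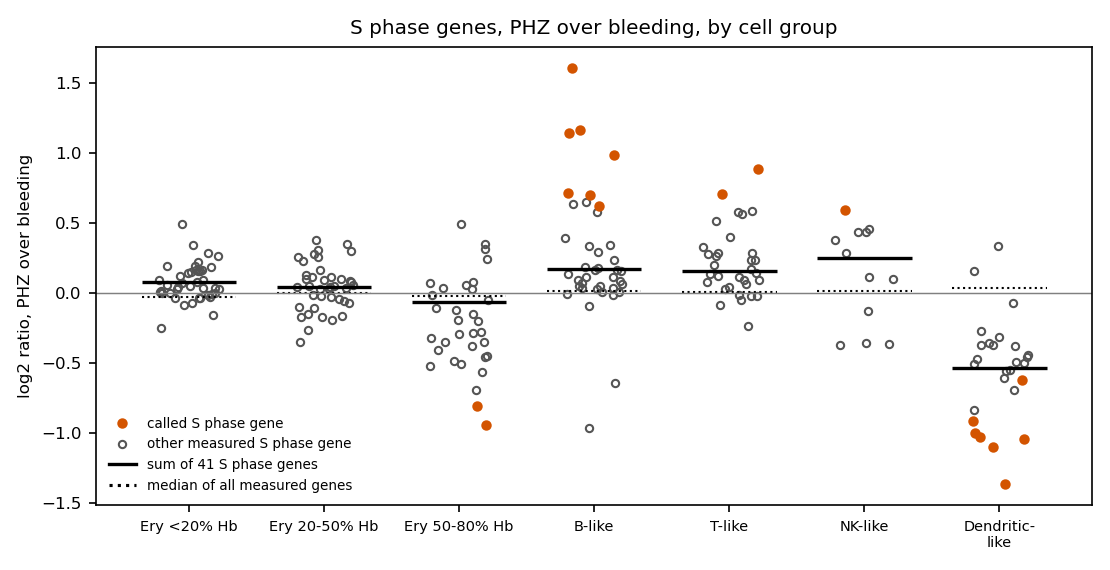
Log2 ratio of PHZ over bleeding for each measured S phase gene (points, filled where called) in 3 erythroid stages and 4 cell classes, with a line at the summed ratio of the 41 genes and a dotted line at the median of all measured genes. Called genes lie above 0 in B, T and NK cells and below 0 in dendritic cells and in erythroid cells of 50 to 80% haemoglobin.

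Past 80% haemoglobin the ratio was higher. It was 1.59 in late cells with 500 or more genes (1.30 to 1.96) and 1.46 in those with fewer (1.30 to 1.63), and in barcodes under 300 genes the level was 690 CPM in PHZ and 346 CPM in bleeding, a ratio of 1.99 (1.80 to 2.21). In those barcodes 10 of 13 measured S phase genes were higher and 0 lower, beside 17.1% and 13.5% of all genes. Late cells with fewer genes had 2 of 5 measured S phase genes higher and 0 lower, beside 17.2% and 10.8% of all genes. They were Pcna, with 48.9 CPM in PHZ and 23.1 CPM in bleeding, and Slbp, with 26.6 and 10.6 CPM. Free RNA differed in the same direction. Barcodes of 10 to 100 UMIs, taken here as free RNA, had 4943 CPM of S phase RNA in PHZ and 2597 CPM in bleeding, a ratio of 1.90 (1.85 to 1.96). With that background subtracted at 5% of UMIs the ratio was 1.27 (0.966 to 1.68) in late cells with 500 or more genes and 1.15 (0.984 to 1.35) in those with fewer, and both intervals hold 1. Of the 2 genes called in the cells with fewer, 1 was then called.

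Some erythroid cells had few UMIs and were kept apart. A cluster led by Diaph3, Neil3 and Mki67 (154 PHZ and 66 bleeding cells) had 6517 CPM of S phase RNA in PHZ and 6272 CPM in bleeding, and 52.3% and 53.8% of its thinned cells had at least 3 such UMIs. In that cluster 4 of 29 genes were higher in PHZ and 0 lower, beside 5.63% and 4.02% of all genes. They were Brip1, a helicase of crosslink repair (ratio 2.29), Dtl, of a ubiquitin ligase that acts with PCNA (2.02), Atad2 (1.56) and Tyms (1.55). A second such cluster, led by Specc1 (151 and 87 cells), had 263 CPM in PHZ and 207 CPM in bleeding and no cell with 3 S phase UMIs after thinning, which allows up to 2.128% and 3.797% by a limit of 3 counts.

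Outside the erythroid cells, neutrophil precursors had the highest level in PHZ, and germinal centre B cells and then neutrophil precursors in bleeding. Basophils or mast cells had 1344 CPM in 6 PHZ cells and 2079 CPM in 9 bleeding cells. Neutrophil precursors, named from their markers, had 3348 CPM in PHZ (48 cells) and 2530 CPM in bleeding (12 cells). Their thinned shares were 52.1% (37.2 to 66.7%) and 16.7% (2.09 to 48.4%), with intervals that overlap. Mature neutrophils had 262 and 234 CPM. Pcna in the precursors was at 243 CPM in PHZ and 171 CPM in bleeding and Rrm2 at 223 and 185 CPM, while Cdca7, low in all erythroid cells past 20%, was at 110 and 100 CPM.

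Germinal centre B cells had 1105 CPM (979 to 1244) in 19 PHZ cells and 3147 CPM (3074 to 3222) in 129 bleeding cells. The 3 cells with the most S phase UMIs held 52.4% of them in PHZ and 18.8% in bleeding. In all, 0 of 19 PHZ cells (exact binomial limit 17.65%, or 15.8% by a limit of 3 counts) and 28.7% of bleeding cells (21.1 to 37.3%) had at least 3 S phase UMIs after thinning. With under 50 PHZ cells no ratio was taken. The summed level of the 12 germinal centre markers moved with it, at 615 CPM in PHZ (11 with UMIs) and 1428 CPM in bleeding (12 with UMIs), and the part of that in the difference was not tested. Rrm2 had 4.02 CPM in PHZ and 122 CPM in bleeding, Pcna 56.3 and 228 CPM, and Clspn, a checkpoint adaptor, 16.1 and 102 CPM. The PHZ cells are few, and the median level per germinal centre B cell was close, at 829.3 CPM in PHZ and 857.5 CPM in bleeding. Precursor B cells had 1273 CPM in PHZ (53 cells), of which the 3 cells with the most held 56.6%, and 1009 CPM in 3 bleeding cells.

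B, T and NK cells had low levels, slightly above in PHZ. B cells had 948 CPM in PHZ and 842 CPM in bleeding (ratio 1.13, 1.09 to 1.16), T cells 854 and 763 CPM (1.12, 1.08 to 1.16) and NK cells 1195 and 1004 CPM (1.19, 1.07 to 1.32). The thinned shares were 6.56% and 5.58% in B cells, 5.73% and 4.38% in T cells, and 13.8% and 9.43% in NK cells, PHZ before bleeding. If all haemoglobin RNA in these cells were free RNA, it would bring at most 214 and 90.8 CPM to B cells, 400 and 149 CPM to T cells, and 492 and 164 CPM to NK cells. With the background subtracted the ratio was 1.001 in B cells and 0.984 in T cells.

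In B cells 7 of 39 genes were higher in PHZ and 0 lower, beside 2.02% and 1.48% of all genes, and the median log2 ratio was 0.16 against 0.02. They were Dtl, with 7.996 CPM in PHZ and 2.62 CPM in bleeding, Rrm2 (6.22 and 2.77), Brip1 (6.37 and 2.88), Clspn (4.89 and 2.47), Mcm5 (19.7 and 12.0), Tyms (5.18 and 3.19) and Uhrf1 (6.81 and 4.42). With the background subtracted, 1 was higher, and with cells of at least 500 or 2000 UMIs, with no doublets removed or at clustering resolution 2, 3 were. In T cells 2 of 32 were higher, Rrm2 (4.80 and 2.60 CPM) and Tyms (10.6 and 6.499), and 0 lower, beside 2.56% and 1.52%, and with the background subtracted 0 were higher and 1 lower. With at least 2000 UMIs per cell 0 were higher, and at clustering resolution 2, 4 were. In NK cells Mcm6 was higher (ratio 1.51), 1 of 12 beside 3.47% of all genes, and 0 were called with at least 2000 UMIs per cell, with no doublets removed, with all UMIs as denominator, without the 3 cells with the most S phase UMIs or with the background subtracted. The summed ratio in NK cells was 0.975 without those 3 cells. In neutrophils Casp8ap2, a nuclear protein needed for histone gene expression, was higher (2.02), 1 of 3 beside 2.66% of all genes, and 0 were lower beside 7.23%. In neutrophils 0 were higher with at least 500 or 2000 UMIs per cell or without the 3 cells with the most S phase UMIs, and 14 with no doublets removed. For B, T and NK cells and neutrophils, the shares over all genes under these other settings are not given here. Those counts therefore cannot be set beside the shares above. Of the 41 genes, Rfc2 kept the largest part of its erythroid level in B cells, at 75.2 CPM in PHZ and 75.7 CPM in bleeding in B cells, against 120 and 118 CPM in erythroid cells under 20%.

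Monocytes and macrophages had 569 CPM in PHZ and 548 CPM in bleeding (ratio 1.04, 0.952 to 1.13), where haemoglobin took 5.05% and 40.8% of UMIs. There Casp8ap2 (ratio 1.53) and Nasp (1.94) were higher and Pola1 (0.367) lower, 2 and 1 of 13 beside 14.1% and 16.2% of all genes. With no doublets removed 9 were higher and 0 lower, and with all UMIs as denominator 8 were higher. Dendritic cells went the other way from the lymphocytes, with 691 CPM in PHZ and 1001 CPM in bleeding (96 and 170 cells; ratio 0.691, 0.643 to 0.742), a difference between classes that was not tested. In dendritic cells 0 of 27 genes were higher and 7 lower, beside 6.95% and 3.45% of all genes, and the median log2 ratio was −0.50 against 0.04. The 7 were Mcm4 (0.389), Wdr76, a protein of DNA damage sites (0.467), Atad2 (0.487), Hells (0.490), Gmnn (0.502), Rpa2, of the single-strand binding protein (0.532), and Slbp (0.652). With at least 2000 UMIs per cell 2 were lower, and with the background subtracted 11. For both classes the shares over all genes under the other settings are not given here. Those counts therefore cannot be set beside the shares above. The 3 dendritic cells with the most S phase UMIs held 25.7% of them in PHZ and 26.0% in bleeding. The median level per dendritic cell was close in the libraries, at 473 CPM in PHZ and 493 CPM in bleeding. Their thinned shares were 5.26% (1.73 to 11.9%) in PHZ and 6.47% (3.27 to 11.3%) in bleeding, with intervals that overlap.

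The genes outside the 41 whose levels followed theirs most closely over 13 cell groups in both libraries (26 points, which share libraries and depth) were Orc6 (Pearson r 0.98), Chtf18, Anp32b, Atad5, Lig1, Brca2, Plk4, Hirip3, Clcn2 and Dek (0.95). Within the list, Pcna (0.98), Gmnn (0.96) and Mcm7 (0.95) were closest to the summed level and Rfc2 (0.50), Ubr7 (0.61), Ung (0.66) and Cdca7 (0.67) farthest.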

How the data were processed

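The authors deposited raw UMI counts, not normalised, with empty droplets included. Per the submitters' processing notes, they used Cell Ranger 7.0.0 and build mm10, while the file header names version 4; the handling of intronic reads is not given in the sources used here. Barcodes with at least 1000 UMIs, 300 genes and at most 10% mitochondrial UMIs were kept. Scrublet doublets (332 in PHZ, 754 in bleeding) were removed with scanpy 1.11.5. Cells of both libraries were clustered together without S, G2 and M phase genes (2000 variable genes, 30 components, Leiden resolution 1), and clusters were named from markers. A cluster's naming rules, low-UMI clusters, the neutrophil split, histone list and narrow haemoglobin steps were set after the data were seen. The members and lists were chosen with earlier results of these data known.

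UMIs were summed per library and cell group. A gene was measured with 50 UMIs in both sides together, and called at 1.5-fold between libraries or 2-fold between stages with an exact conditional 95% interval off 1. Described in full were the 10 members with the most UMIs, the 5 first and 5 last lost, and those called between libraries; of other lists, the 4 with the most erythroid UMIs and those called, of which 1 is not reported here. Intervals were checked on simulated data. With 1 library per treatment there is no test between treatments.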

Additional observations from a re-analysis of the deposited data

Results flagged for a closer look

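The summed S phase level in dendritic cells was 691 CPM in PHZ and 1001 CPM in bleeding, a ratio of 0.691, while B, T and NK cells had ratios above 1. The opposite direction drew attention to it, and the difference between the classes was not tested. Germinal centre B cells, basophils or mast cells and erythroid cells of 50 to 80% haemoglobin also had the lower level in PHZ. So did the unnamed clusters led by Ccl5 and Atp8a2 and an unnamed part of the neutrophils. Over the other settings the dendritic cell ratio ran from 0.533 to 0.853. It is a ratio of sums, and the median level per cell was 473 CPM in PHZ and 493 CPM in bleeding.

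Barcodes under 300 genes, which no comparison of cells used, had a ratio of PHZ over bleeding of 1.99 (1.80 to 2.21). Barcodes of 10 to 100 UMIs, taken as background, had 4943 CPM of S phase RNA in PHZ and 2597 CPM in bleeding, a ratio of 1.90 (1.85 to 1.96). Both are signals in barcodes outside the kept cells.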

How the results depend on the processing

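No paired analysis was possible because each treatment had 1 library, and for the same reason no replicate could be left out. A setting added after the data were seen put the low-UMI erythroid clusters in the stages. The fall between the stages of 20 to 50% and 50 to 80% held in 38 to 41 genes in PHZ and 32 to 38 in bleeding under every setting. The causes of the shifts below were not tested.

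The ratio under 20% haemoglobin, 1.06 as reported, was 1.03 with at least 500 UMIs per cell, 1.04 with no doublets removed, 1.08 with limits at 25, 55 and 85%, 1.04 with all UMIs as denominator, 1.04 with background subtracted and 1.04 without the 3 members with the most UMIs. The ratio from 20 to 50%, 1.03 as reported, turned below 1 with at least 500 UMIs (0.994), cell cycle genes kept for clustering (0.996), limits at 15, 45 and 75% (0.980) and limits at 25, 55 and 85% (0.881). It was 1.29 with no doublets removed, 1.06 without the 3 cells with the most S phase UMIs, 1.19 as a mean over equally weighted cells and 1.07 with the low-UMI clusters put in. The ratio from 50 to 80%, 0.957 as reported, turned above 1 with no doublets removed (1.29), limits at 25, 55 and 85% (1.21), without those 3 cells (1.03) and as that mean (1.09). It was 0.996 with all UMIs, 0.897 with background subtracted and 0.914 without the 3 members. The T cell ratio turned to 0.984 with background subtracted, and the NK cell ratio to 0.981 with no doublets removed and 0.975 without the 3 cells.

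Genes called higher in PHZ became 1 under 20% with limits at 25, 55 and 85%, and from 20 to 50% 1 with no doublets removed and 1 without the 3 cells. Genes called lower from 20 to 50% became 2 with limits at 25, 55 and 85%. From 50 to 80%, those higher became 8 with no doublets removed and 2 with limits at 25, 55 and 85%; those lower became 1 with either other set of limits, 1 without the 3 cells and 6 with background subtracted. Between under 20% and 20 to 50%, genes that fell became 14 in PHZ with limits at 25, 55 and 85% and 14 with all UMIs, and 12 with no doublets removed, 9 with those limits and 16 with all UMIs in bleeding. Genes that rose became 1 with those limits and 0 with all UMIs in PHZ, and 2 with no doublets removed and 2 with all UMIs in bleeding. The shares over all genes under these settings are not given here.

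Thinned shares of PHZ and bleeding cells under 20% were 79.7% and 62.0% with no doublets removed, 93.5% and 92.9% with cell cycle genes kept, 63.1% and 64.1% thinned to 500 UMIs, 94.5% and 94.3% thinned to 2000, 75.9% and 69.0% with at least 5 UMIs, and 61.3% and 60% with the low-UMI clusters put in. From 20 to 50% they were 61.0% and 45.8%, 82.4% and 77.5%, 56.6% and 44.3%, 85.4% and 78.9%, 59.6% and 48.4%, and 58.7% and 44.96% in the same order, and 67.5% in PHZ with limits at 25, 55 and 85%. From 50 to 80% they were 22.8% and 23.2% with limits at 15, 45 and 75%, 9.13% and 5.77% with limits at 25, 55 and 85%, 8.54% and 6.98% thinned to 500, 24.97% and 21.3% thinned to 2000, and 8.67% and 9.30% with at least 5 UMIs.

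Depth limits the comparison between libraries: 2 S phase genes were measured in late cells with 500 or more genes and 0 in the low-UMI cluster led by Specc1, and thinned shares rest on 1000 UMIs per cell.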
